A study of Mus musculus with 8 samples.

Results

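A mouse expression microarray carried, beside its probes for annotated genes, a large set of probes against long noncoding RNA (lncRNA) ranges lying between genes, and these are the probes described here. They were taken by name only, as every non-control probe whose identifier begins with A_30_P, so no measured value decided which probes belong. The set itself was chosen with earlier results of these data known. The rule took 16251 of 55681 non-control probes, and the other 39430 served as the comparison set. Of the chosen probes, 16181 are named for a range of the mm9 genome build and a strand, forward (F) or reverse (R). They cover 4607 combinations of range and strand in 3540 ranges, 1067 of which have probes on both strands. The remaining 70 probes carry 15 names, among them the transcripts XIST, NEAT1, H19 and HOTAIR. Each probe is 60 bases long, a range and strand had a median of 3 probes and at most 10, and the named ranges run from 62 to 7128487 bases with a median of 7304.

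The label of these probes was checked as far as the files allow. All 16063 strand-named probes with a mapped position lay inside their named range and on its strand. Against the word intergenic, 79 probes had the same 60 bases as an ordinary probe of the array. Exon and intron positions on mm9, and coding potential, were not checked here. Probes flagged as outlier spots were left out, which removed 9 of the chosen probes and left 16242.

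The study compared gene expression in medullary thymic epithelial cells (mTEC) with and without Cdx1, a homeobox transcription factor of the intestinal epithelium. Cells came from mice of mixed C57BL/6 and 129 background, of genotype Cdx1+/+ or Cdx1-/-. Mature mTEC were sorted as live (Fluorogold-) CD45- Epcam+ UEA1+ cells with high CD80 and high MHCII, from pools of 4 to 6 thymi, and 3 arrays of each genotype were analysed. Small intestine epithelial cells (SIEC) were sorted as Epcam+ CD45- Fluorogold- cells from pools of 3 mice, and 1 array labelled Cdx1+/+ and 1 labelled Cdx1-/- were analysed here, although the design text gives 3 replicates per group. The ages of the mice and the part of Cdx1 missing from the mutant allele are not given in the sources used here. Pools were described as independent replicates, so the spread between arrays is that between pools.

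Long noncoding RNAs are transcripts with no long open reading frame, many of them capped, spliced and polyadenylated like messenger RNAs. They are known for low levels, for expression limited to few tissues and for lying next to, or antisense to, genes of development. Mature mTEC are known for transcribing genes of many other tissues, partly under the regulator Aire, which exposes developing T cells to those gene products. A probe reads only 1 strand, so the strands of a range are measured separately on this array. Whether RNA of 1 strand can give signal on a probe of the other through labelling was not tested.

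The probes below carry the main differences that follow and are printed 5′ to 3′ as the array files give them. Capitals mark AATAAA or ATTAAA, the hexamers of polyadenylation signals, searched on the probe's own strand only. The probes of the first group come from neighbouring positions on chromosome 1 in the locus of Pantr1, at chr1:42705046-42705105 (reverse), chr1:42705119-42705178 (reverse) and chr1:42705151-42705210 (forward). The last 2 overlap by 28 bases, chr1:42705151-42705178, and are complementary there, so they read opposite strands of 1 stretch of DNA.
BRN1-A A_30_P01024432: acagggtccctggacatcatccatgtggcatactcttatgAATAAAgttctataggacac
chr1:42689799-42749799_R A_30_P01030648: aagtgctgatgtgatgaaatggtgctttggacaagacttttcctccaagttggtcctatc
chr1:42689799-42749799_F A_30_P01029716: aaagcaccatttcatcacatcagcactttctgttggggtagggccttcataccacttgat

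The next probes read HOTAIR (chr15:102774847-102774906, reverse) and H19 (chr7:149761693-149761752, reverse), shown because every probe of these transcripts lay on the same side of 0 between the mTEC genotypes. They and the forward probe above were added to the printed set after their values were seen.
HOTAIR A_30_P01022414: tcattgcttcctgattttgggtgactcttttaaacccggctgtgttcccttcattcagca
H19 A_30_P01021588: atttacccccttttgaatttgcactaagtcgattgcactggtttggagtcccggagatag

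Of the strand-named probes, 2 with a large difference upwards in Cdx1-/- mTEC, 1 with a large difference downwards and the probes with the largest difference between tissues outside the Pantr1 locus are shown next. They lie at chr7:96644199-96644258 (reverse), chr8:49239235-49239294 (forward), chr4:135904500-135904559 (reverse), chr1:94610861-94610920 (reverse) and chr4:46583956-46584015 (reverse).
chr7:96640618-96649018_R A_30_P01030155: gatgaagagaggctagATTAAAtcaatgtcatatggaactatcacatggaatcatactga
chr8:49237358-49246495_F A_30_P01031162: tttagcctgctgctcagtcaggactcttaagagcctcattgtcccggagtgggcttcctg
chr4:135896689-135918414_R A_30_P01024647: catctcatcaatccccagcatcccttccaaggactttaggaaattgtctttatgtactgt
chr1:94608820-94634671_R A_30_P01023609: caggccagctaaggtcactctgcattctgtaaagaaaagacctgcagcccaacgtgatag
chr4:46583780-46614788_R A_30_P01028951: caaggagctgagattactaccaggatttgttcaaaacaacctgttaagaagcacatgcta

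Levels are log2 of the processed intensity minus the 75th percentile of that array, so a level of 0 lies at that percentile. Levels of single probes are not set against each other, but means and medians over sets of probes are given. A probe counts as detected where the scanner software flagged it as well above background. The ordinary Cdx1 probe gave levels of 5.88, 5.90 and 5.96 in Cdx1+/+ mTEC and 4.80, 4.98 and 5.00 in Cdx1-/- mTEC, a difference of -0.99 (SE 0.09, limma adjusted p = 0.00509). It was detected on every array, and in SIEC it stood at 4.87 with the label Cdx1+/+ and at 6.48 with the label Cdx1-/-. The intestinal order goes against the labels, so the 2 intestinal arrays are named below by their labels only. Mature mTEC markers were detected on all 6 mTEC arrays for 12 of 12 genes, with mean levels of 4.59 to 4.75 in Cdx1+/+ and 4.53 to 4.75 in Cdx1-/- mTEC. Small intestine markers averaged 1.92 to 2.04 in Cdx1+/+ and 1.10 to 1.13 in Cdx1-/- mTEC, and 8 of 11 were called lower in Cdx1-/- mTEC. Thymocyte markers averaged -0.97 to -0.36 and -0.83 to -0.79, B cell markers 0.10 to 0.22 and -0.16 to 0.08, mesenchymal markers 0.24 to 0.39 and -0.02 to 0.14, dendritic cell and macrophage markers -0.23 to -0.08 and -0.31 to -0.09, and endothelial markers -1.72 to -1.48 and -2.11 to -1.61, in Cdx1+/+ and Cdx1-/- mTEC respectively. All 6 mTEC arrays detected 7 of 8 thymocyte, 4 of 4 B cell, 4 of 5 mesenchymal, 5 of 6 dendritic cell and macrophage, and 3 of 3 endothelial markers, and Rag2, Xcr1 and Pdgfra were detected on none. Of these markers, Lyz2 and Cd79b were called higher in Cdx1-/- mTEC, by 0.93 and 0.56 (limma adjusted p = 0.00542 and 0.0199), and Mrc1, Pdgfrb and Ptcra lower, at -1.43, -0.79 and -0.49 (limma adjusted p = 0.00233, 0.0126 and 0.0258). The part of these markers in the results below was not tested, and fewer cells of a type and less RNA per cell cannot be told apart in these pools.

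A smaller share of the lncRNA probes than of the ordinary probes was detected on every array, and the share was lowest in SIEC. In Cdx1+/+ mTEC, 35.6%, 29.8% and 31.7% of the lncRNA probes were detected, against 72.8%, 68.8% and 71.1% of the other probes on the same arrays. In Cdx1-/- mTEC the shares were 28.9%, 30.0% and 29.7%, against 68.4%, 69.0% and 68.7% of the other probes. On the SIEC arrays they were 25.6% (labelled Cdx1+/+) and 23.2% (labelled Cdx1-/-), against 53.2% and 51.7%. Cdx1+/+ replicate 1 had the highest share of all arrays, the 2 mTEC genotypes overlapped, and both SIEC arrays lay below every mTEC array. The lowest detected signal, as a scaled log2 level, also differed by array. It was -5.35 on Cdx1+/+ replicate 1 and -5.05 to -4.65 on the other mTEC arrays. On the SIEC arrays it was -4.02 (labelled Cdx1+/+) and -3.56 (labelled Cdx1-/-). Within mTEC the order was not fully kept, as Cdx1-/- replicate 2 had -4.65 with a share of 30.0%. The part of this limit in the shares was not tested.

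**Figure D1:**
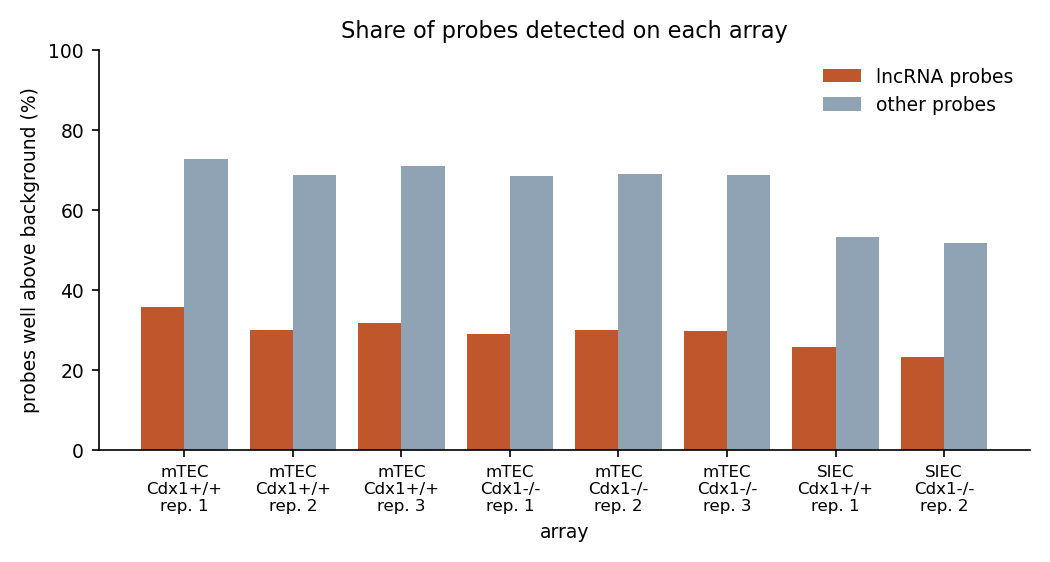
Share of probes flagged well above background (percent, vertical axis from 0) on each of the 8 arrays, as bars for the lncRNA probes and for all other non-control probes. The lncRNA bars lie between 23.2% and 35.6% and the bars of the other probes between 51.7% and 72.8%.

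The mean share of detected lncRNA probes was 29.5% ± 0.54 (SD, n = 3) for the Cdx1-/- mTEC arrays, against 32.4% ± 2.97 (SD, n = 3) for those of Cdx1+/+ mTEC, a difference of -2.85 percentage points (exact permutation p = 0.20, 2-sided, with 0.10 the smallest p that 3 against 3 arrays allow). Without Cdx1+/+ replicate 1 the difference was -1.21 points. Between tissues, the mean was 30.9% ± 2.47 (SD, n = 6) in mTEC and 24.4% ± 1.72 (SD, n = 2) in SIEC, a difference of 6.54 points (exact permutation p = 0.0714, the smallest that 6 against 2 arrays allow). The gap between other and lncRNA probes was 38.9 points in mTEC and 28.0 in SIEC (exact permutation p = 0.0714). The ratio of both shares was 2.26 in mTEC and 2.15 in SIEC (exact permutation p = 0.286). With the scanner's looser flag for a signal above background, the difference between tissues was 2.35 points (exact permutation p = 0.50). That flag put the mean at 62.1% ± 2.99 (SD, n = 3) for Cdx1+/+ and at 56.7% ± 1.99 (SD, n = 3) for the other genotype, with no overlap of the mTEC arrays, a difference of -5.34 points (exact permutation p = 0.10, the smallest allowed).

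Taken probe by probe, 9043 of 16242 lncRNA probes (55.7%) were detected on no array, against 23.0% of the other probes. All 6 mTEC arrays detected 3914 lncRNA probes (24.1%), both SIEC arrays 3418 (21.0%) and all 8 arrays 2731 (16.8%). For the other probes these shares were 65.3%, 49.97% and 47.9%. Detection on all 6 mTEC arrays and on neither SIEC array was found for 870 lncRNA probes, and the reverse for 137. Among probes detected on all 6 mTEC arrays, 22.2% of lncRNA and 22.1% of other probes were detected on neither SIEC array. Among probes detected on both SIEC arrays, 4.01% of lncRNA and 1.04% of other probes were detected on no mTEC array. Between the mTEC genotypes, 112 lncRNA probes (0.69%) were detected on the 3 Cdx1+/+ arrays only, and 8 (0.049%) on the 3 Cdx1-/- arrays only. For the other probes the numbers were 219 (0.56%) and 20 (0.051%).

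Detection went with base composition. Of lncRNA probes with at most 35% G and C, 17.7% were detected on all 6 mTEC arrays, and of those above 55%, 48.2% were, with 21.0% and 33.9% in the bins between. Over these 4 bins the share of tested probes called between the mTEC genotypes ran the other way, from 10.1% through 8.43% and 6.27% to 2.03%. The median G and C content was 45% in lncRNA and 41.7% in other probes. A polyadenylation hexamer (AATAAA or ATTAAA, own strand) occurred in 1018 of 16242 lncRNA probes (6.27%) and in 16.7% of the other probes. lncRNA probes with a hexamer were detected on all 6 mTEC arrays in 26.3% of cases and those without in 23.9%. For the other probes these shares were 74.2% and 63.5%. Several probes of 1 range often disagreed in detection. Of 3378 ranges and strands with at least 3 probes, 312 had every probe detected on all 6 mTEC arrays, 1226 had some and 1840 had none.

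Between the mTEC genotypes, most lncRNA probes that could be tested did not pass the test, and those that did went both ways. A probe was tested where at least 2 arrays of 1 genotype detected it, and called at an adjusted p under 0.05 over all probes tested. Of 5352 lncRNA probes tested, 401 were called (7.49%), 227 of them higher and 174 lower in Cdx1-/- mTEC. Over all 33520 probes tested the share called was 10.5%, with 5.2% higher and 5.3% lower. The called probes lay in 276 ranges and strands, and 59 higher and 37 lower ones differed at least 2-fold (1.10% and 0.69% of the probes tested, against 0.67% and 1.11% over all probes). Genotypes did not overlap for 1375 lncRNA probes (25.7%), against 36.4% of all probes tested. The median SE of the difference was 0.177 for lncRNA and 0.120 for other tested probes. Cdx1-/- replicate 1 was on the slide of the SIEC arrays and the other 5 mTEC arrays on another: with the slide as a block 231 lncRNA probes were called, and within the 5 arrays of 1 slide 246. Leaving out any 1 mTEC array also lowered the count beyond 1.5 times: to 222, 187 and 121 without Cdx1+/+ replicate 1, 2 or 3, and to 246, 227 and 179 without Cdx1-/- replicate 1, 2 or 3. No probe was called in opposite directions by any of these fits.

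**Figure D2:**
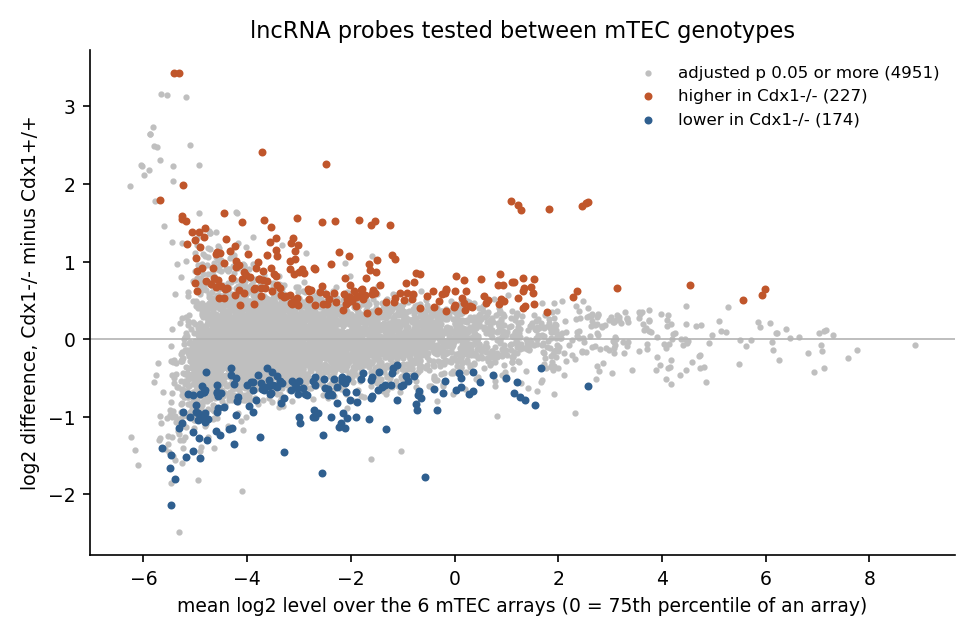
Difference between Cdx1-/- and Cdx1+/+ mTEC (log2, vertical axis) against the mean log2 level over the 6 mTEC arrays (horizontal axis) for the 5352 tested lncRNA probes, with 227 called higher, 174 called lower and 4951 not called. Called probes occur on both sides of 0 at low and middle levels.

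Most of the lncRNA probes named for the largest upward differences lay in the locus of Pantr1, an RNA gene beside Pou3f3, which encodes a POU-domain transcription factor of the nervous system also known as Brn1. BRN1-A, the array's name for probes in this locus, stood at 1.65, 1.48 and 1.85 in Cdx1+/+ mTEC and at 3.43, 3.40 and 3.42 in Cdx1-/- mTEC with probe A_30_P01024930, and at -5.93 and -5.49 in SIEC. Its genotypes were far apart, and the 3 Cdx1-/- arrays differed from each other by less than the Cdx1+/+ arrays did. The difference was 1.75 (SE 0.11, limma adjusted p = 0.00233). All 4 BRN1-A probes were higher in Cdx1-/- mTEC, by 1.67 to 1.77, with adjusted p from 0.00232 to 0.00343. The range chr1:42689799-42749799 repeated this on its reverse strand: probe A_30_P01023139 read 0.12, 0.16 and 0.33 against 1.94, 1.97 and 2.01, a difference of 1.77 (SE 0.09, limma adjusted p = 0.00196). A pair of further reverse probes of this range, A_30_P01030648 and A_30_P01031206, differed by 1.71 and 1.68. These probes overlap and tile 1 short stretch, so they are not independent readings. The ordinary Pantr1 probe, which has the same 60 bases as A_30_P01024930 and so repeats it, was 1.72 higher (limma adjusted p = 0.00438), and Pou3f3, 50929 bases from A_30_P01024930, 1.42 higher (limma adjusted p = 0.00232).

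HOTAIR, an antisense RNA of the HoxC cluster, was also higher in Cdx1-/- mTEC with all 5 of its probes. Probe A_30_P01022414 read -1.96, -1.95 and -2.05 in Cdx1+/+ and -0.44, -0.68 and -0.43 in Cdx1-/- mTEC, and -3.64 and -3.46 in SIEC, where it was not detected. No array of 1 genotype reached the other. The difference was 1.47 (SE 0.10, limma adjusted p = 0.00293), and over the 5 probes it ran from 1.14 to 1.53 with adjusted p from 0.00293 to 0.00438.

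NEAT1, the scaffold RNA of nuclear paraspeckles, was moderately higher. Probe A_30_P01023251 read 4.33, 4.22 and 4.06 in Cdx1+/+ and 4.99, 4.84 and 4.86 in Cdx1-/- mTEC, with no overlap, a difference of 0.69 (SE 0.11, limma adjusted p = 0.0146). The 5 probes differed by 0.41 to 0.69 and 4 of them were called, and the lowest, A_30_P01021631, missed the threshold (limma adjusted p = 0.0696). With the replicate number as a block, A_30_P01020135 was no longer called (limma adjusted p = 0.0530). The ordinary Neat1 probe was 0.48 higher (limma adjusted p = 0.0350). Around it, all 3 probes of chr19:5834117-5835940_R were 0.78 higher, and 3 of 10 probes of chr19:5771425-5848475_F, on the opposite strand, were called higher by 0.59 to 0.73. The 10 probes ran from -0.60 to 0.73, the lowest, A_30_P01020769, not called (limma adjusted p = 0.0834), and A_30_P01019048 was not called with the replicate number as a block (limma adjusted p = 0.0693). NEAT2, also known as Malat1, an abundant nuclear RNA of the same locus, showed differences of 0.23 to 0.25 over 3 probes that missed the threshold (limma adjusted p from 0.265 to 0.362).

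H19, an imprinted RNA known from fetal tissues, was lower. Probe A_30_P01021588 read 1.85, 2.31 and 1.77 in Cdx1+/+ and 1.03, 1.29 and 1.06 in Cdx1-/- mTEC. The genotypes did not overlap, and the difference was -0.85 (SE 0.16, limma adjusted p = 0.0261). Over 5 probes the differences ran from -0.85 to -0.38 and 4 were called, one of which, A_30_P01026972, was not called with the replicate number as a block (limma adjusted p = 0.0561). The ordinary H19 probe differed by -0.66 (limma adjusted p = 0.0113). With the slide as a block, all called NEAT1 and H19 probes except NEAT1 A_30_P01023251 lost their calls, with adjusted p from 0.0636 to 0.0957.

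Of the other transcripts with names of their own, TUG1, a nuclear RNA first known from retina, differed by 0.10 to 0.22 over 5 probes, none called (limma adjusted p from 0.188 to 0.477). XIST, which coats the inactive X chromosome, differed by 0.20 to 0.31 over 5 probes (adjusted p from 0.641 to 0.765). Its spread lay between replicates: probe A_30_P01023652 read 3.39, 3.29 and 2.27 in Cdx1+/+ and 3.50, 3.71 and 2.49 in Cdx1-/- mTEC, with replicate 3 lowest in both genotypes. PINC, an RNA known from mammary gland, had 1 tested probe of 5, which read -4.19, -3.38 and -3.59 against -4.79, -4.79 and -4.51, a difference of -0.98 (SE 0.22, limma adjusted p = 0.0382). That probe was detected on 4 of 6 mTEC arrays, and its call was lost with the slide as a block (limma adjusted p = 0.0937), within 1 slide (0.0905), with normexp, at -0.31 (0.416), and without any 1 of 5 arrays (up to 0.104). NRON, a repressor of the transcription factor NFAT, had 2 tested probes, at -0.04 and -0.24, neither called. KCNQ1ot1, an imprinted antisense RNA, had 1 tested probe, at 0.26 (limma adjusted p = 0.148). TSIX, the antisense partner of XIST, lincP21, an RNA known from the p53 response, and 1 unnamed range on chromosome 6 had no testable probe. In all, 41 of the 70 probes without a strand name were tested, 13 of them called higher and 5 lower, where 10.5% of all probes tested were called. The calls come from few transcripts read by several probes each: 5 from HOTAIR and 4 each from BRN1-A, NEAT1 and H19, beside 1 from PINC.

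**Figure D3:**
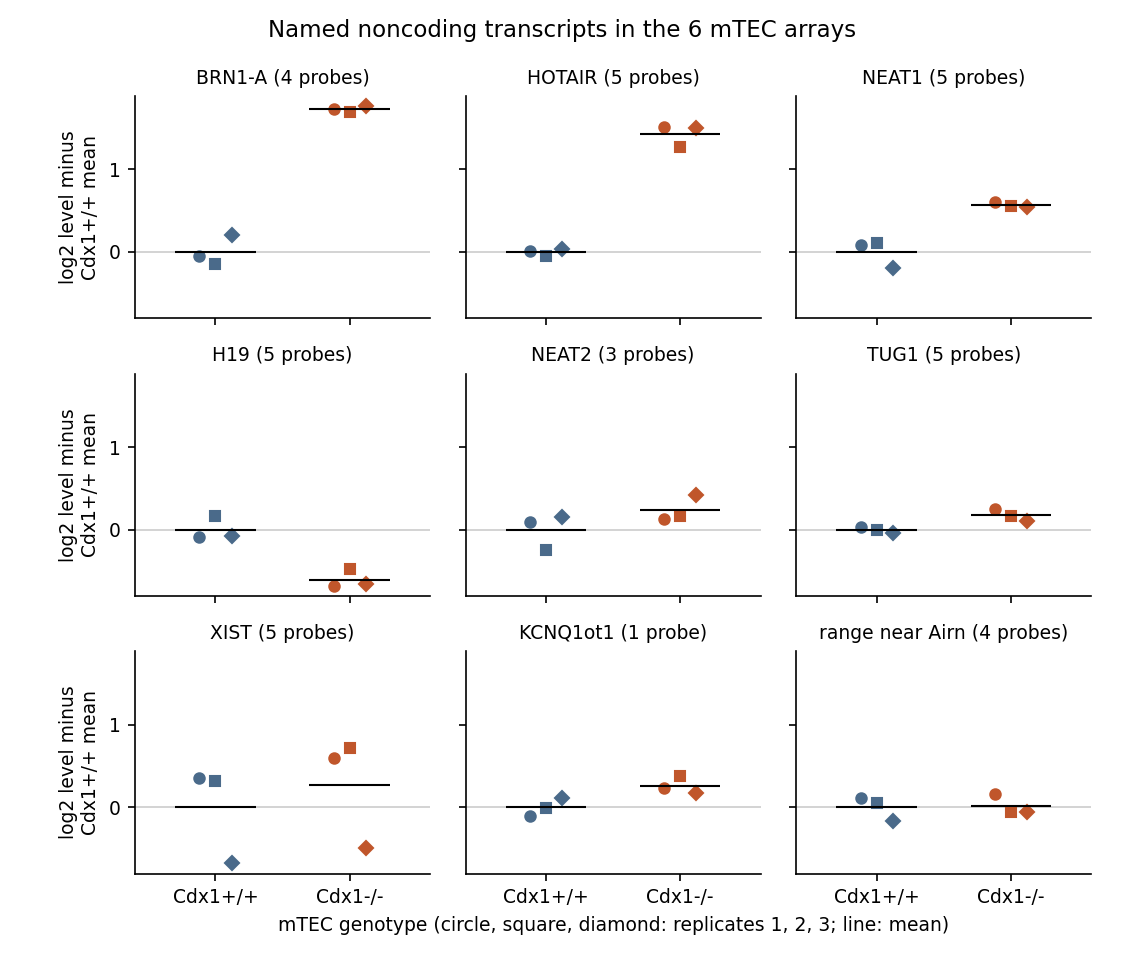
Mean log2 level over the probes of each of 9 transcripts or ranges, minus the mean of the 3 Cdx1+/+ mTEC arrays (vertical axis), for each mTEC array by genotype (horizontal axis). Circles, squares and diamonds are replicates 1, 2 and 3 and lines are group means: BRN1-A and HOTAIR lie above 0 on every Cdx1-/- array, H19 below, and XIST separates replicate 3 from replicates 1 and 2 in both genotypes.

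Among strand-named probes detected on every Cdx1-/- mTEC array and with the genotypes apart, the largest upward differences belonged to single probes of 3 ranges. In chr7:96640618-96649018_R, 13397 bases from the serine protease gene Prss23, probe A_30_P01030155 read -7.41, -6.87 and -7.08 in Cdx1+/+ and -3.60, -4.25 and -3.24 in Cdx1-/- mTEC. It was detected on all 3 Cdx1-/- arrays and on no Cdx1+/+ array. It was therefore at least 2.53-fold higher (limma adjusted p = 0.00366), where such a bound sets the brighter group's mean against the higher, array by array, of the dim probe's own level and the lowest detected signal. In chr8:49237358-49246495_F, 12701 bases from the deaminase gene Dctd, probe A_30_P01031162 read -4.16, -3.05 and -3.61 against -1.39, -1.37 and -1.30. The difference was 2.26 (SE 0.26, limma adjusted p = 0.00784), with no overlap. A probe of a region on chromosome 18, the chromosome that carries Cdx1, read -4.91, -5.29 and -4.56 against -2.66, -2.86 and -1.99, a difference of 2.42 (SE 0.27, limma adjusted p = 0.00750).

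The downward differences were led by dim probes, and for several only a bound can be given. chr2:52241435-52245307_F, 12437 bases from Arl5a, read -3.95, -4.19 and -4.27 in Cdx1+/+ and -5.87, -5.42 and -5.72 in Cdx1-/- mTEC with probe A_30_P01025928. Detected on every Cdx1+/+ and no Cdx1-/- array, it was at least 1.59-fold higher in Cdx1+/+ mTEC (limma adjusted p = 0.00513). In the same way, 1 probe of chr5:111538420-111540142_F was at least 1.40-fold, 1 of chr8:108153471-108159346_R at least 1.25-fold, 1 of chr6:125330524-125410249_F at least 1.11-fold and 1 of chr14:27930334-27930974_F at least 1.06-fold higher in Cdx1+/+ mTEC, with limma adjusted p from 0.00849 to 0.0329. The 2 tested probes of chr5:111538420-111540142_F differed by -1.44 and 0.03. With the replicate number as a block the probes of chr5:111538420-111540142_F and chr14:27930334-27930974_F were not called (limma adjusted p = 0.0536 and 0.0585). With normexp background correction, which re-estimates the background from the raw signals, none of these 5 probes was called (limma adjusted p from 0.0943 to 0.415), and with the slide as a block chr8:108153471-108159346_R was not (limma adjusted p = 0.0663).

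Of the 8 lower probes of largest difference, 2 outside chromosome 18 were detected on every array, and both had higher levels in SIEC than in mTEC. chr4:135896689-135918414_R, 1332 bases from the unnamed gene 9130020K20Rik, read -2.05, -1.32 and -1.73 in Cdx1+/+ and -4.07, -2.93 and -3.24 in Cdx1-/- mTEC with probe A_30_P01024647, and 3.80 and 3.41 in SIEC. The mTEC difference was -1.72 (SE 0.32, limma adjusted p = 0.0242). chr1:74084292-74138492_F read -2.84, -2.24 and -2.62 against -4.33, -3.57 and -4.18, and 2.63 and 2.09 in SIEC, with probe A_30_P01024664. Its mTEC difference was -1.46 (SE 0.24, limma adjusted p = 0.0176), and the genotypes overlapped for neither of these probes. Each range had 2 tested probes, and the other one differed by -0.36 in the chr4 range and -0.51 in the chr1 range. A region on chromosome 18 read 0.71, 0.34 and -0.09 against -1.95, -1.66 and -0.76, a difference of -1.77 (SE 0.34, limma adjusted p = 0.0261), which the replicate block did not call (adjusted p = 0.0627).

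Where more than 1 probe of a range and strand was called, the calls had 1 direction. At least 2 probes were called in 73 ranges and strands, in 46 all higher, in 27 all lower and in 0 both ways. chr15:32167516-32174427_R holds the ordinary probe of the small nucleolar RNA host gene Snhg18 on its own strand. All 5 probes of the range were called higher, by 0.57 to 1.20 (limma adjusted p from 0.0053 to 0.0311). Of these, A_30_P01029645 was not called with the replicate number as a block (limma adjusted p = 0.0613). The 5 probes overlap the ordinary Snhg18 probe or lie at most 27 bases from it, so they are not independent readings. Probe A_30_P01033043 read -3.65, -3.76 and -3.49 in Cdx1+/+ and -2.41, -2.63 and -2.47 in Cdx1-/- mTEC, and 2.95 and 2.70 in SIEC. The genotypes did not overlap, and the ordinary Snhg18 probe was 1.31 higher (limma adjusted p = 0.0272). In chr8:60132300-60146830_F, 4 of 4 tested probes were higher, by 0.85 to 1.21. There A_30_P01030568 read -4.54, -4.57 and -4.49 against -3.53, -3.56 and -3.20. In chr10:95772764-95825001_F, 3 probes were higher by 0.64 to 1.54, and A_30_P01026001 read -2.41, -2.54 and -2.91 against -1.06, -1.19 and -0.99 (limma adjusted p = 0.00513).

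Downward, chr8:124355710-124401160_R had 3 of 4 tested probes lower, with differences of -0.86 to -0.51. Probe A_30_P01027500 read -1.51, -1.43 and -1.46 in Cdx1+/+ and -2.36, -2.27 and -2.21 in Cdx1-/- mTEC, a difference of -0.81 (SE 0.09, limma adjusted p = 0.00657), and A_30_P01025936 was not called with the replicate number as a block (limma adjusted p = 0.0559). chr14:21029450-21049451_F had 3 of 4 tested probes lower, with differences of -0.91 to -0.66, and its probe A_30_P01021285 read -0.42, -0.13 and -0.23 against -1.14, -1.12 and -1.26 (limma adjusted p = 0.00792). In both examples the genotypes did not overlap. These ranges with several called probes were singled out after their values were seen.

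Where a range had probes on both strands, detection of both was common. Of 1067 such ranges, 439 (41.1%) had a probe detected on at least 2 of 6 mTEC arrays on each strand, 422 on 1 strand only (190 forward, 232 reverse) and 206 on neither. Requiring all 6 arrays left 277 with both strands, 456 with 1 and 334 with neither. Probes that overlap on opposite strands gave a closer view: of 2646 such pairs, with a median overlap of 36 bases, 330 (12.5%) had both probes detected on at least 2 mTEC arrays, 1053 had 1 and 1263 had neither.

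Between the mTEC genotypes, 424 ranges had a tested probe on each strand, and 5 had a called probe on each. In 3 both strands were higher in Cdx1-/- mTEC, and 2 of these are described here. In chr1:42689799-42749799, the Pantr1 locus, forward probe A_30_P01029716 read -3.92, -3.85 and -3.67 against -2.57, -2.15 and -2.05, a difference of 1.56 (SE 0.16, limma adjusted p = 0.00539), where the reverse strand gave 1.77. Both of these probes were thus apart between genotypes, and the 3 tested forward probes ran from 0.26 to 1.56. In chr1:59449275-59474025 the probes of smallest p gave 0.82 forward and 1.50 reverse (limma adjusted p = 0.0101 and 0.0104). Opposite calls were found in 2 ranges. With the probe of smallest p on each strand, chr2:72818943-72826893 gave 0.45 forward and -0.71 reverse, and chr5:121759042-121789992 gave -0.37 forward and 0.98 reverse. Their limma adjusted p ran from 0.0353 to 0.0474. Both chr2 strands held both signs: 7 tested forward probes ran from -0.21 to 0.49 and 4 tested reverse probes from -0.71 to 0.31. For chr5, 1 of 8 reverse probes was tested, and the 2 tested forward probes ran from -0.98 to -0.37. The chr2 reverse probe was detected on 2 Cdx1+/+ and 0 Cdx1-/- arrays, so it was at least 1.18-fold higher in Cdx1+/+ mTEC, and the chr5 reverse probe on 1 Cdx1+/+ and 3 Cdx1-/- arrays. With the replicate block neither pair kept both calls (adjusted p of 0.0670 for the chr2 reverse probe, and of 0.0554 and 0.0900 for chr5). With quantile normalization, the percentile over detected probes, the authors' deposited table and normexp, both strands were called in 5, 5, 3 and 0 ranges, and in opposite directions in 1, 3, 0 and 0.

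**Figure D4:**
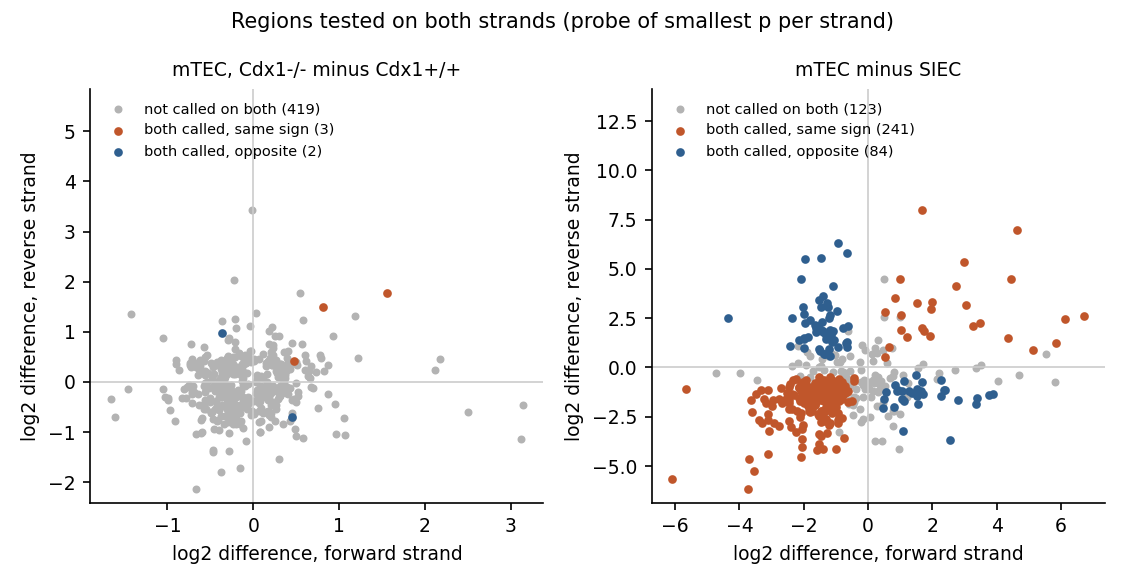
Log2 difference of the forward probe (horizontal axis) against that of the reverse probe (vertical axis) with the smallest p on each strand, for ranges tested on both strands, between mTEC genotypes (left, 424 ranges) and between mTEC and SIEC (right, 448 ranges). Colours separate ranges called on both strands in the same direction (3 and 241), in opposite directions (2 and 84), and the rest (419 and 123).

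The nearest gene with a probe of its own lay a median of 19798 bases away for 16124 placed lncRNA probes, was on the same strand for 52.7% and was protein-coding for 12306. Detection was higher close to a gene on its own strand: 50.8% of lncRNA probes within 1000 bases of a same-strand gene probe were detected on all 6 mTEC arrays, against 17.0% of those as close on the opposite strand. Genotype differences of probe and gene were most alike at short distance on the same strand. Across probes, Pearson's r was 0.72 within 1000 bases on the same strand (402 pairs) and 0.44 on the opposite strand (149 pairs). On the same strand it was 0.33 from 1000 to 10000 bases (762 pairs) and 0.13 from there to 50000 (939 pairs). Gene probes and their nearest same-strand gene within 1000 bases gave 0.52 (74 pairs). These gene pairs leave out probes of the same gene, and the lncRNA pairs leave out only identical sequences. Pairs share arrays and genes, so these values are descriptions. Part of the short-distance pairs on the same strand are probes that overlap, with r = 0.91 over 83 pairs, and 319 pairs with no overlap gave 0.67. On the opposite strand, r was 0.75 over 17 overlapping pairs and 0.35 over 132 with no overlap. With protein-coding genes alone, r was 0.60 over 224 same-strand pairs and 0.20 over 94 opposite-strand pairs. Within 1000 bases the sign was shared by 79.1% of same-strand pairs and 51.0% of opposite-strand pairs.

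**Figure D5:**
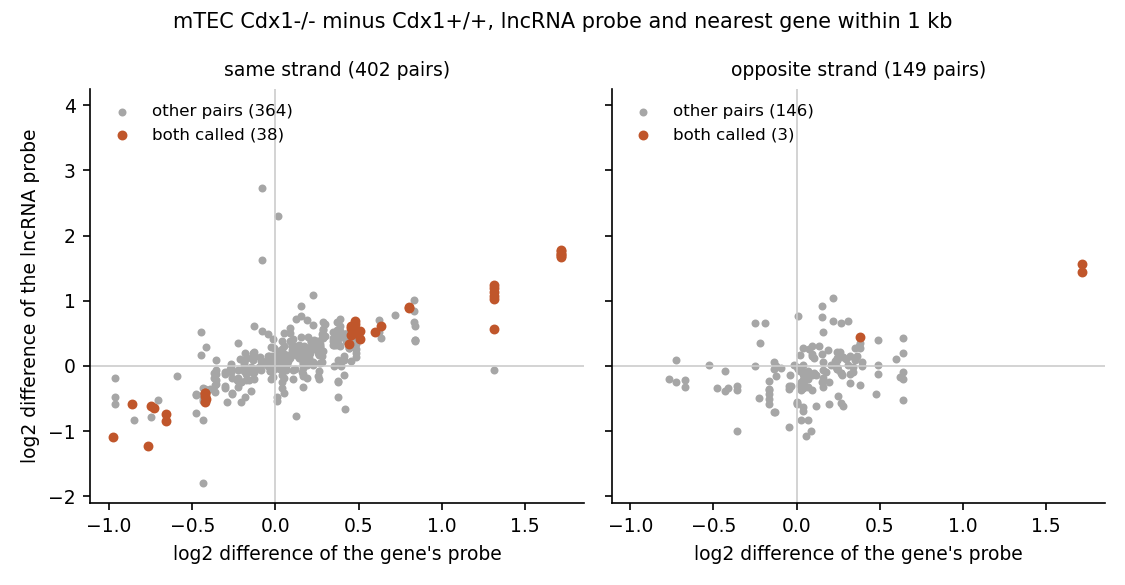
Log2 difference between mTEC genotypes of each lncRNA probe (vertical axis) against that of the nearest gene probe within 1000 bases (horizontal axis), for 402 pairs on the same strand and 149 on opposite strands. Pairs with both probes called number 38 and 3, all of them in the lower left or upper right.

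Within 10000 bases, 161 called lncRNA probes had a tested nearest gene, and in 53 pairs (32.9%) the gene was called too, 53 in the same direction and 0 in the opposite one. Such pairs numbered 27 with normexp and 63 with quantile normalization, 1 of these 63 in opposite directions. For gene probes and their nearest other gene, 97 of 639 pairs (15.2%) were both called, 79 of them in the same direction. The shares are not of like pairings, because only the gene pairs leave out probes of the same gene. The lncRNA pairs include probes of 1 transcript set against each other, such as NEAT1 with Neat1, H19 with H19 and BRN1-A with Pantr1. The 53 pairs come from 19 genes and 26 named ranges, with 39 higher and 14 lower, and 41 lay within 1000 bases. Besides Pantr1, they include Frem3, an extracellular matrix gene, at 0.45 with lncRNA probes at 0.48 to 0.62, Snx6, a sorting nexin, at 0.44 with 0.34 (limma adjusted p = 0.0612 with the replicate block) and 0.47, and the imprinted gene Zdbf2 at -0.98 with -1.08. Mgam, which encodes the brush border enzyme maltase-glucoamylase, differed by -0.43 (limma adjusted p = 0.0372). The range chr6:40693617-40720167_F holds the Mgam probe on the same strand, and 3 of its 5 probes were called lower. Of these, A_30_P01026532 and A_30_P01030527 were not called with the replicate block (limma adjusted p = 0.0549 and 0.0625). The other, A_30_P01029478, read 0.97, 0.98 and 0.99 in Cdx1+/+ and 0.62, 0.51 and 0.41 in Cdx1-/- mTEC. Its genotypes did not overlap, its difference was -0.46 (limma adjusted p = 0.0268), and its SIEC levels of 6.58 and 7.18 were far above both. Frem3, Snx6 and Zdbf2 also have their probes inside the named ranges, on the same strand. Whether the lncRNA probes of these ranges read the genes' own RNA was not tested. Pairs other than those of Pantr1 were chosen after their values were seen.

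Between mTEC and SIEC most tested lncRNA probes differed. Of the mTEC arrays only Cdx1-/- replicate 1 shared the slide of the SIEC arrays, so tissue and slide are largely confounded, also for the detected shares. Of 5637 tested, 4254 were called (75.5%), 1319 higher in mTEC and 2935 higher in SIEC, against 82.1% of all 34171 probes tested (33.8% higher in mTEC, 48.3% higher in SIEC). Higher in mTEC were thus 31.0% of the called lncRNA probes and 41.1% of all called probes. That split depends on the scaling: it was 28.5% with quantile normalization, 58.5% with the percentile taken over detected probes, 11.1% with normexp background correction and 22.2% in the authors' deposited table. The median difference over all tested probes was -0.39 and over lncRNA probes -0.68, and lncRNA probes lay below all probes by 0.24 to 0.72 under these 5 scalings. Levels of lncRNA probes correlated at 0.928 to 0.968 between mTEC arrays, at 0.936 between the SIEC arrays and at 0.678 to 0.709 between tissues, over 7199 probes detected on at least 1 array.

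Several probes were bright in mTEC and not detected in SIEC. BRN1-A was detected on no SIEC array and was at least 80.3-fold higher in mTEC with A_30_P01024930 (limma adjusted p = 5.86e-08) and at least 82.5-fold with A_30_P01024432. chr1:94608820-94634671_R had all 5 probes called higher in mTEC and detected on no SIEC array, with bounds of at least 11.3-fold to at least 96.6-fold. Probe A_30_P01023609 read 2.78, 2.92 and 2.91 in Cdx1+/+ and 2.69, 2.68 and 2.85 in Cdx1-/- mTEC, and -5.84 and -3.92 in SIEC. It was at least 96.6-fold higher in mTEC, and the mTEC genotypes differed by -0.13 (limma adjusted p = 0.413). chrX:121004130-121007360_R was at least 49.1-fold higher in mTEC, with A_30_P01021770 between 1.55 and 2.43 on the mTEC arrays.

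Others were bright in SIEC and not detected in mTEC. In chr4:46583780-46614788_R, probe A_30_P01028951 read -5.01, -4.55, -4.65, -5.47, -5.89 and -5.23 on the mTEC arrays, detected on none, and 1.74 and 2.35 in SIEC. It was at least 113-fold higher in SIEC (limma adjusted p = 3.15e-07). chr9:96664617-96683617_R was at least 26.7-fold higher in SIEC. In chr6:40693617-40720167, which holds the Mgam probe, both strands were higher in SIEC. The 5 forward probes differed by -6.13 to -5.89. Reverse probe A_30_P01017735, not detected in mTEC, was at least 27.1-fold higher. The probes A_30_P01024647 of chr4:135896689-135918414_R and A_30_P01024664 of chr1:74084292-74138492_F, lower in Cdx1-/- mTEC, differed between tissues by -6.16 and -5.66. Over the tested probes of these ranges the tissue differences ran from -6.16 to -3.32 and from -5.66 to -0.90.

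Both strands of a range were often called between tissues, mostly but not always in 1 direction. Of 448 ranges tested on both strands, 325 had a called probe on each, 241 in the same direction (27 higher in mTEC, 214 higher in SIEC) and 84 in opposite directions. Under the other scalings 241 to 396 ranges were called on both strands, 50 to 95 of them in opposite directions. With the probe of smallest p on each strand, chr5:106982442-107045717 differed by -1.96 forward and 5.48 reverse (mTEC minus SIEC). In chr11:97275905-97310538 these differences were 2.55 and -3.70. Near genes, 576 lncRNA probes within 1000 bases of a gene probe were tested between tissues together with it. In 401 of these pairs both were called, 370 in the same direction.

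Of the transcripts under their own names, NEAT2 was higher in mTEC by 3.54 to 3.72 and NEAT1 by 0.92 to 1.16. H19, detected on no SIEC array, was at least 40.5-fold higher in mTEC with A_30_P01021588. HOTAIR was at least 1.26-fold to 4.92-fold higher over its 5 probes, and its probe A_30_P01030952 turned from 1.72 to -0.27 with normexp background correction. TUG1 was lower in mTEC, with differences of -1.57 to -1.41, as were KCNQ1ot1 with -2.42 for A_30_P01026203, detected on all 6 mTEC arrays, and an unstranded range beside the imprinted antisense RNA Airn with -2.58 to -2.01. The other 4 KCNQ1ot1 probes were detected on 1 or 2 mTEC arrays and called lower in mTEC too. In all, 46 of these probes were tested between tissues, 22 of them higher in mTEC and 17 higher in SIEC.

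The 2 SIEC arrays, 1 of each labelled genotype, allow no test on their own. Of 4508 lncRNA probes detected on at least 1 of them, 617 (13.7%) differed at least 2-fold, 371 higher on the array labelled Cdx1-/- and 246 lower, against 9.28% of all probes. The split was 278 higher and 317 lower with quantile normalization and 235 and 341 in the authors' deposited table. XIST stood out, with A_30_P01023652 at 5.24 on the array labelled Cdx1+/+ and at -4.72, not detected, on the other. Its 5 probes were at least 81.7-fold to 447-fold higher on the former. On the array labelled Cdx1-/-, chr1:138528250-138538250_R was at least 11.99-fold higher, chr17:15226181-15250333_R at least 7.63-fold and chr6:28161665-28189840_F at least 6.75-fold.

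The ordinary probes of annotated lncRNA genes were also read, from a list of 69 symbols of which 47 were on the array. Between mTEC genotypes 36 were tested, 4 were higher (Neat1, Snhg18, Pantr1 and Mir99ahg, the last by 0.80) and 1, H19, was lower, with a median of 0.02. Between tissues, 18 of 37 were higher in mTEC and 15 higher in SIEC, with a median of 0.39, which lay between -0.09 and 1.20 under the other scalings. Genes of nuclear RNA decay and processing, the exosome, its adaptors and the cleavage complexes that limit many noncoding transcripts, were read from a list of 34, with 30 tested. Between mTEC genotypes 0 were higher and 1, the cap-binding protein gene Ncbp3, was lower, with a difference of -0.68 (limma adjusted p = 0.0324), with a median of 0.09. Between tissues, 2 were higher in mTEC and 25 higher in SIEC, with a median of -0.95 against -0.39 over all probes. With the percentile over detected probes these counts were 6 and 10.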

How the data were processed

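RNA was extracted and labelled with Cy3 by a service company, per the labels' protocols, and hybridised to 1-colour Agilent arrays. The deposited scanner files hold 1 processed intensity per spot from Agilent Feature Extraction 10.7.3.1, with its background correction already applied, per the file headers. The authors also deposited a table of normalized intensity values. On comparison, each of its columns was that array's processed intensity times a constant, with a median of 1, and it served as an alternative only. No other processing step is given in the sources used here. The number of arrays limits the precision.

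Spots of a probe were averaged, each array's 75th percentile was subtracted from log2 intensity, and limma 3.58.1 (R 4.3.3, with version 1.17.8 of data.table) was fitted over all non-control probes detected on at least 2 arrays of 1 mTEC genotype or, between tissues, also on both SIEC arrays, with genotype as a term. Adjusted p is Benjamini-Hochberg over all probes tested, 2-sided, called under 0.05. No spot was saturated. Shares were compared with exact permutation tests (Python 3.11.15, SciPy 1.17.1, pandas 2.3.3), and figures drawn with matplotlib 3.10.9. The scripts were tested on simulated data. Alternatives were the normalization, normexp with an offset of 50, the authors' table, filters, a slide or replicate block, and leaving out each array.

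Replicate numbers come from the sample titles. Same-numbered mTEC arrays of both genotypes deviated together (correlations 0.295, 0.135 and 0.158, others -0.205 to 0.032). Each genotype's mean was subtracted first, which lowers the other correlations where the same-numbered ones are positive. Whether the numbers pair the arrays was not tested. The fits printed have no replicate block, as the design fixed, and blocked values are given where they change a call. Probes were named by rule: the 8 higher and 8 lower of largest called difference between genotypes, 6 each way between tissues and 3 each way between the SIEC arrays (the genotypes or tissues apart, and the brighter group detected). Up to 4 ranges called on both strands in each direction were named too, with up to 4 genes per list. The rule also took the 6 gene pairs within 10000 bases, both called, whose larger adjusted p was smallest, and the nearest genes of the named ranges. Probes with transcript names, ranges with several called probes and further pairs were added after their values were seen. The set of probes and the lists were chosen with earlier results of these data known. Nearest genes come from the arrays' own mm9 probe positions. 1 range called on both strands, and its neighbouring gene, are not reported here.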

Additional observations from a re-analysis of the deposited data

Results flagged for a closer look

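Genotype differences were compared between mTEC and SIEC by an interaction term, with the spread taken from the mTEC arrays: SIEC has 1 array of each label, and these lone arrays are assumed to vary like the mTEC arrays. It was past the threshold for 497 of 5637 lncRNA probes (8.82%) and for 12.6% of all 34171 probes tested. Of the named probes detected on all 8 arrays, 3 were past the threshold, a number not read against these shares. A_30_P01031162 and A_30_P01030935 were named for their mTEC difference, which is itself part of the interaction. chr8:49237358-49246495_F A_30_P01031162 was 2.26 higher in Cdx1-/- mTEC and stood at -1.24 between the SIEC arrays, an interaction of 3.49 (limma adjusted p = 0.0116). chr6:40693617-40720167_F A_30_P01029478, of the range that holds the Mgam probe, differed by -0.46 in mTEC and 0.60 in SIEC, an interaction of -1.06. chr5:121759042-121789992_F A_30_P01030935 differed by -0.37 in mTEC and 0.46 in SIEC, an interaction of -0.83 (limma adjusted p = 0.0312). The Cdx1 probe was higher on the SIEC array labelled Cdx1-/-, so the direction within SIEC rests on those labels. XIST was at least 81.7-fold to 447-fold higher on the SIEC array labelled Cdx1+/+. In SIEC, a difference that goes with the label and one that goes with XIST cannot be told apart. With the 2 labels exchanged, an alternative chosen after the data were seen, the interactions were 1.02 for A_30_P01031162, 0.13 for A_30_P01029478 and 0.09 for A_30_P01030935, none past the threshold (limma adjusted p = 0.304, 0.721 and 0.806).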

How the results depend on the processing

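Of the counts, 401 lncRNA probes called between mTEC genotypes became 134 with normexp, 97 with no filter on detection (66 of them among the 401), 231 with a slide block, 246 within 1 slide, 207 with 1 probe per named range, and 121 to 246 on leaving out single arrays. The replicate block gave 479, 309 of them among the 401. The called probes checked this way were those named between genotypes and 41 in 14 ranges, partly the same probes. Among them it ended no call other than those given above and in the range called on both strands that is not reported here. Of the 41 in ranges, 6 lost the call with it, 15 with a slide block and 18 with normexp, and 0 turned. The other settings gave 394 to 481. The difference in detected share between genotypes ran from -4.12 to -1.21 points on leaving out single arrays, and that between tissues from 5.32 to 7.76. Between tissues, 4254 calls became 12434 with no filter, 1981 with 1 probe per range and 2271 among probes detected on all 8 arrays, and 4014 to 4269 on leaving out arrays. The 617 probes differing 2-fold between the SIEC arrays became 77 with normexp. The 439 ranges with both strands detected became 277 when all 6 mTEC arrays were required, and the 53 pairs with both probes called became 90 at any distance, 27 with normexp and 63 with quantile normalization. HOTAIR A_30_P01030952 turned from 1.72 to -0.27 between tissues with normexp. For the 41 called probes named between genotypes, 519 of 696 values under the alternatives kept the call, 177 lost it and 0 turned, and for 49 between tissues 961 of 965 kept it.

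Dim probes limit these results: lncRNA probes detected on all 6 mTEC arrays had a median level of -2.42, other probes -0.12.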

Other observations

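KCNQ1ot1 gave 2 answers between tissues. Of its 5 lncRNA probes, 4 were detected on at most 2 of 6 mTEC arrays. The fifth, A_30_P01026203, was lower in mTEC and read -3.56, -3.47 and -3.34 in Cdx1+/+ and -3.22, -3.07 and -3.28 in Cdx1-/- mTEC, against -0.88 and -0.92 in SIEC, a difference of -2.42. The ordinary Kcnq1ot1 probe was 0.89 higher in mTEC (limma adjusted p = 0.000103).

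Some ranges changed along their length. In chr16:90038086-90127636_R, 3 probes starting at 90064642 to 90064763 were lower in Cdx1-/- mTEC, with differences of -0.60 to -0.47, and were higher in mTEC than in SIEC. Another 4 probes of the same range and strand, starting at 90090205 to 90090644, were not called between genotypes (differences of -0.28 to 0.15, limma adjusted p from 0.388 to 0.952) and were higher in SIEC.

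The share of tested lncRNA probes called between genotypes differed by chromosome. It was 15.9% on chromosome 1 (65 of 408, 42 higher and 23 lower), 15.0% on chromosome 15 (27 higher, 6 lower) and 14.6% on chromosome 19 (17 higher, 3 lower), and lowest on chromosome 17, at 3.09%. For the other probes of chromosome 1 the share was 12.5%, of chromosome 15 it was 10.9%, of chromosome 19 10.99% and of chromosome 17 9.88%. The called lncRNA probes include 9 in the Pantr1 locus on chromosome 1, 5 of HOTAIR and 6 in the Snhg18 locus on chromosome 15, and 10 in the NEAT1 locus on chromosome 19. On chromosome 18, which carries Cdx1, it was 10.6% (4 higher, 14 lower), against 15.5% of the other probes there.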
